A study of Mus musculus with 10 samples.

Results

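The genes of the immunoproteasome and of class I peptide loading were followed in the hippocampus of mice given a circular RNA of the tau gene. They are Psmb8, Psmb9, Psmb10, Psme1, Psme2, Tap1, Tap2, Tapbp, Nlrc5 and Erap1, taken by symbol, 10 of the 21956 genes in the deposited table. All 10 were among the 14396 genes with enough counts to be tested. They were selected on their differences between circTau6 and control libraries in these same data, which were known when they were picked, so their differences between groups are given as a description and support nothing. Counts of these genes past a test's threshold are given once, beside the same share over all genes, and nothing is read from them.

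RNA sequencing was done on hippocampus from 5 hMapt mice injected with AAV-circTau6 and 5 hMapt mice labelled control, all aged 6 months and sampled 80 days after injection. By the series title circTau6 derives from MAPT, the human gene for the microtubule-binding protein tau, and AAV is adeno-associated virus, a gene delivery vector. All mice of both groups carry the hMapt genotype, so no group without it enters the comparison. The labels' protocols call the control mice injected but do not name what they received, and the promoter of the vector was not given in the sources used here. Below, the groups are called circTau6 and control, and libraries carry the replicate numbers of the labels, which name a mouse within its group.

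Cells cut their own cytosolic proteins into peptides with the proteasome and show them at the surface on MHC class I molecules, where CD8 T cells read them. Under interferon-gamma the catalytic subunits of the standard proteasome are replaced in new particles by inducible subunits, the PA28 activator docks on the particle, peptides are pumped into the endoplasmic reticulum by the TAP transporter, and tapasin and trimming peptidases fit them to class I. In the healthy brain this machinery is low, and among resident cells microglia and endothelial cells express it more than neurons do.

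Total counts were 14762952 to 17647138 per library, and 3 counts at the lowest depth correspond to 0.203 CPM, a limit that covers counting error only. Here CPM is the count scaled to the library total after TMM scaling, which evens out composition between libraries. Hippocampal neuron, astrocyte and oligodendrocyte markers were abundant in all 10 libraries. Choroid plexus transcripts were not even: Ttr, the transthyretin gene of that epithelium, had 411 counts in circTau6 library 5 and 650 in control library 2, against 28538 to 86422 in the other 8 libraries. In circTau6 library 3 the deviation of a gene from the mean of all libraries went with its GC content, with a Pearson r of 0.28 across 14371 genes, against -0.07 to -0.01 in the others. The differences of the 10 genes are therefore also given without these libraries.

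Of the 10 genes, 4 lie side by side in the MHC class II region of chromosome 17 (GRCm38, GENCODE release M21). Psmb9 (ENSMUSG00000096727, chr17:34181987-34187764, minus strand), Tap1 (ENSMUSG00000037321, chr17:34187553-34197225, plus strand), Psmb8 (ENSMUSG00000024338, chr17:34197721-34201454, plus strand) and Tap2 (ENSMUSG00000024339, chr17:34203527-34216321, plus strand) fill 34.3 kb. Tapbp (ENSMUSG00000024308, chr17:33915899-33929292, plus strand) lies on the same chromosome. Psme1 (ENSMUSG00000022216, chr14:55578123-55581529, plus strand) and Psme2 (ENSMUSG00000079197, chr14:55587441-55591113, minus strand) are neighbours on chromosome 14. Psmb10 (ENSMUSG00000031897, chr8:105935735-105938444, minus strand), Nlrc5 (ENSMUSG00000074151, chr8:94434356-94527272, plus strand) and Erap1 (ENSMUSG00000021583, chr13:74639568-74693201, plus strand) lie apart. All 10 are annotated as protein-coding.

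Psmb9 and Tap1 are read in opposite directions from 1 shared stretch, which is shown because it lies between their starts. In RefSeq on GRCm38.p6 the Psmb9 start is at position 34187330 and the Tap1 start at 34187556 of chromosome 17, with 225 bases between them at 61.3% GC. The window below is chr17:34187306-34187605, plus strand, and the capitals mark the bases between the starts.
Tap1 and Psmb9: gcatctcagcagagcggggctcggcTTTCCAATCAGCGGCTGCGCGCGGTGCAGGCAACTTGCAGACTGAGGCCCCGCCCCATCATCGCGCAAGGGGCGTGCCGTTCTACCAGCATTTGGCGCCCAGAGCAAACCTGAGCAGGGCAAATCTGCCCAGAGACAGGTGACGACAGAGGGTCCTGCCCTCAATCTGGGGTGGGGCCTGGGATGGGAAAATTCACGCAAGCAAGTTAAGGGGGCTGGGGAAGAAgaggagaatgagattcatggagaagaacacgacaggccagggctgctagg
The windows of these genes, each from 250 bases before to 50 after a start, share 275 bases.

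RefSeq start-site windows were found for 8 of the 10 genes, 9 windows in all since Psme2 has more than 1 entry, and were searched on both strands for the word of an interferon-linked element. The windows shown are those that hold a match, and the capitals mark it. The word GAAA followed after any 2 bases by GAAA, bound by interferon regulatory factors, was present in 3.44% of the 32851 windows of all genes and, among the genes described here, in those of Erap1 (chr13:74639603-74639902, plus strand) and Psme1 (chr14:55578244-55578543, plus strand), in both read on the minus strand.
Erap1: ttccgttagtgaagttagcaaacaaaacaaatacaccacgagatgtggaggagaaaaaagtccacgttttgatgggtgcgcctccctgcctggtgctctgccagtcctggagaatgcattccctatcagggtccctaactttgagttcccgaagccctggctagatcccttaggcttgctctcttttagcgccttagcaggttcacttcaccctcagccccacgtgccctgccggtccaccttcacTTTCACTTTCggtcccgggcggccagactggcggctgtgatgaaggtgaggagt
Psme1: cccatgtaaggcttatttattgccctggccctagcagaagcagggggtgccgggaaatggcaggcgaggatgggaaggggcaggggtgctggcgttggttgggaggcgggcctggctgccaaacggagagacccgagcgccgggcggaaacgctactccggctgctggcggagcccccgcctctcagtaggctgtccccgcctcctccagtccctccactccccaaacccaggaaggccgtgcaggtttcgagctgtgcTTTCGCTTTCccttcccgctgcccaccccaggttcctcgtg
A match is a description of letters, and a window without one says nothing about the factor.

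Among the 10 genes, Nlrc5, Psmb8, Tap1, Psmb9 and Tap2 had the larger differences, with fitted levels 2.13, 2.04, 1.72, 1.64 and 1.38 times as high in circTau6 as in control libraries. For Psmb10, Tapbp, Erap1, Psme2 and Psme1 the ratio was 1.05 to 1.16. The genes of the standard proteasome lay near a ratio of 1. None of the 10 passed edgeR's test across all genes.

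The 3 inducible catalytic subunits differed in how far the groups were apart. Psmb8 encodes the subunit that takes the chymotrypsin-like place. Psmb8 had 4.70, 5.50, 6.77, 4.65 and 3.67 CPM in circTau6 libraries 1 to 5, against 3.49, 3.20, 2.30, 1.74 and 1.67 CPM in control libraries 1 to 5. No circTau6 library was as low as any control, with circTau6 library 5 the closest to the controls. The means were 5.06 ± 1.16 CPM in circTau6 and 2.48 ± 0.835 CPM in control libraries (SD, n = 5 each), a log2 fold change of 1.03 ± 0.23 (SE) in the edgeR fit over all genes. In whole tissue, more RNA per cell and more cells of a type that expresses the gene cannot be told apart, and this holds for every gene below.

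Psmb9 encodes the inducible subunit that takes the caspase-like place. Its levels were near the lower end of what these libraries resolve, with 8 to 32 counts per library. Psmb9 had 1.70, 1.87, 1.78, 1.82 and 0.748 CPM in circTau6 libraries, against 1.87, 0.949, 0.861, 0.602 and 0.534 CPM in control libraries. The groups overlapped at both ends: circTau6 library 5 sat among the low controls, and control library 1 sat with the 4 high circTau6 libraries. The means were 1.58 ± 0.472 CPM in circTau6 and 0.964 ± 0.538 CPM in control libraries (SD, n = 5 each), with a log2 fold change of 0.72 ± 0.36 (SE). With 1 library left out it ran from 0.57, without control library 5, to 1.09, without control library 1.

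Psmb10 encodes the inducible subunit of the trypsin-like place and was the most abundant of the 3. It had 11.045, 10.6, 12.3, 9.77 and 10.6 CPM in circTau6 libraries, against 9.76, 10.9, 7.98, 9.57 and 8.81 CPM in control libraries. The groups overlapped, and control library 2 was above 3 of the circTau6 libraries. The means were 10.9 ± 0.915 CPM in circTau6 and 9.41 ± 1.10 CPM in control libraries (SD, n = 5 each), and the log2 fold change was 0.21 ± 0.11 (SE).

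**Figure D1:**
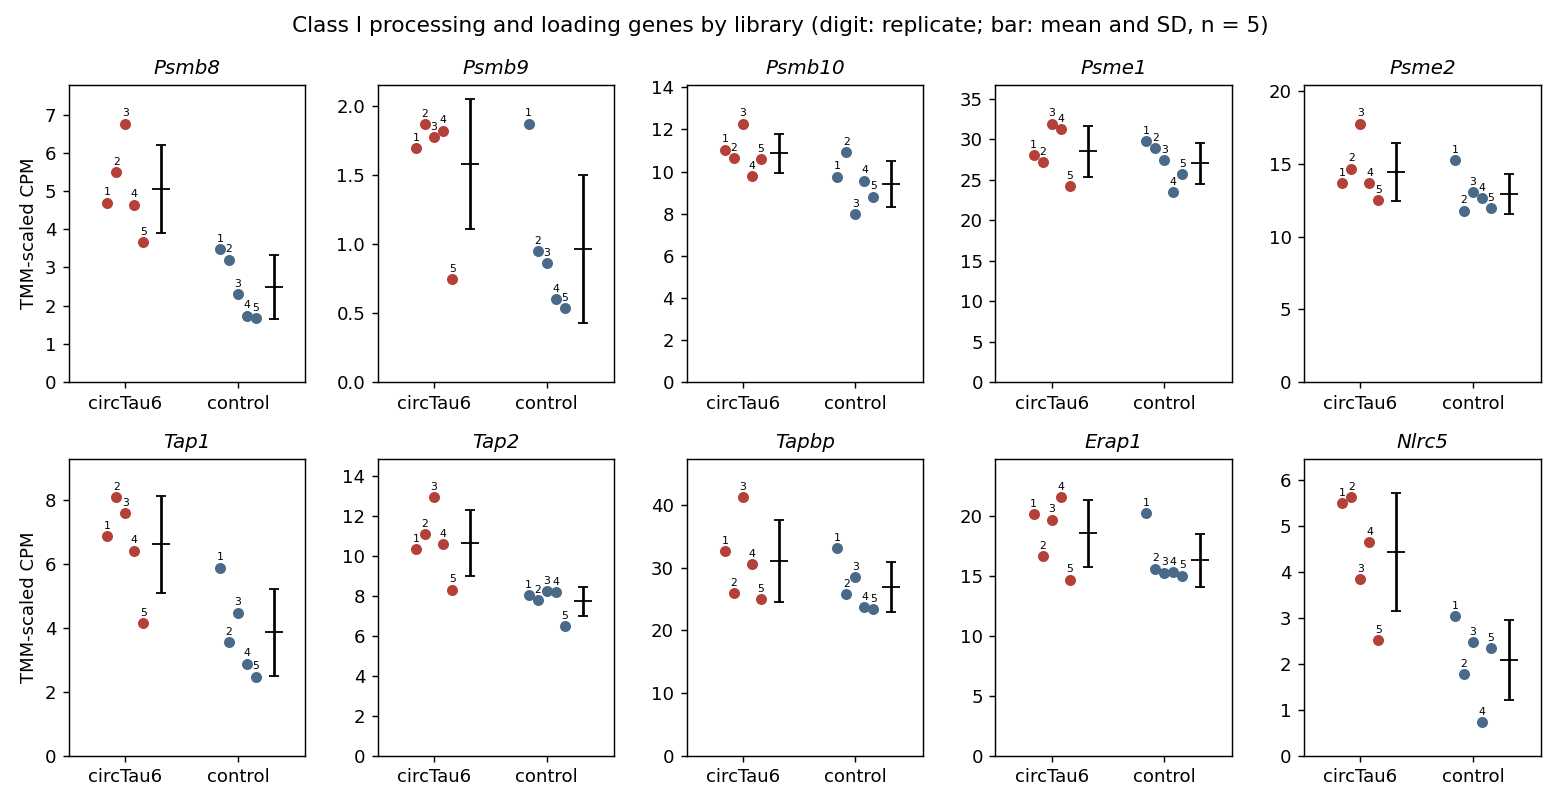
TMM-scaled CPM (y axis) of each of the 10 genes in the 5 circTau6 libraries and the 5 control libraries (x axis). Points are libraries with their replicate number, and bars give the mean and SD of 5. For Psmb8 and Tap2 all circTau6 points lie above all control points, and circTau6 library 5 is the lowest of its group in 9 of the 10 genes.

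PA28, the activator ring that opens the proteasome, is built from the products of Psme1 and Psme2. Psme1 had 28.04, 27.2, 31.95, 31.2 and 24.2 CPM in circTau6 libraries, against 29.8, 28.9, 27.4, 23.5 and 25.8 CPM in control libraries. Its groups were mixed, with means of 28.5 ± 3.15 CPM in circTau6 and 27.1 ± 2.52 CPM in control libraries (SD, n = 5 each) and a log2 fold change of 0.08 ± 0.09 (SE). Psme2 ranged from 12.5 to 17.8 CPM in circTau6 and from 11.8 to 15.3 CPM in control libraries, with a log2 fold change of 0.16 ± 0.11 (SE). In CPM the difference between means was smaller than the SD of either group for Psme1, and smaller than the SD of the circTau6 group for Psme2 (14.5 ± 2.00 CPM in circTau6 and 12.95 ± 1.39 CPM in control libraries, SD, n = 5 each). In TPM, which also scales to transcript length, Psme2 had 42.0 ± 4.01 in circTau6 and 35.3 ± 3.39 in control libraries (SD, n = 5 each). These TPM means were further apart than either SD. For Psme2, 3 circTau6 libraries exceeded each control in TPM and 1 in CPM. Without circTau6 library 3, which is high in both genes, the log2 fold changes were 0.03 for Psme1 and 0.08 for Psme2. Psme2 has a near copy, Psme2b, and 459 of 888 stretches of 75 bases of Psme2 (51.7%) occur in both. The libraries were read as paired ends of 150 bp, and how many such reads fit both genes was not tested. Psme2b had 6 to 16 counts in circTau6 and 5 to 16 counts in control libraries.

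Tap1 and Tap2 encode the subunits of the peptide transporter. Tap1 had 6.85, 8.07, 7.57, 6.41 and 4.15 CPM in circTau6 libraries, against 5.88, 3.56, 4.48, 2.88 and 2.47 CPM in control libraries. Here 4 of 5 circTau6 libraries exceeded each control, while circTau6 library 5 lay within the control range. Tap1 averaged 6.61 ± 1.52 CPM in circTau6 and 3.85 ± 1.37 CPM in control libraries (SD, n = 5 each), with a log2 fold change of 0.78 ± 0.23 (SE).

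Tap2 was tighter among controls than Tap1. It had 10.3, 11.1, 12.9, 10.6 and 8.29 CPM in circTau6 libraries, against 8.02, 7.77, 8.21, 8.16 and 6.47 CPM in control libraries. All circTau6 values lay above all control values, circTau6 library 5 by a small margin over control library 3. The means were 10.6 ± 1.65 CPM in circTau6 and 7.73 ± 0.722 CPM in control libraries (SD, n = 5 each), and the log2 fold change was 0.46 ± 0.12 (SE).

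Tapbp encodes tapasin, which bridges the transporter and class I. It had 32.6, 25.9, 41.2, 30.6 and 25.0 CPM in circTau6 libraries, against 33.1, 25.9, 28.5, 23.7 and 23.4 CPM in control libraries. Most values of the groups overlapped, and circTau6 library 3 alone stood above all others. The means were 31.1 ± 6.51 CPM in circTau6 and 26.9 ± 4.02 CPM in control libraries (SD, n = 5 each). The log2 fold change was 0.21 ± 0.14 (SE), and 0.08 without circTau6 library 3.

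Erap1 encodes the aminopeptidase that trims peptides in the endoplasmic reticulum. It had 20.1, 16.6, 19.7, 21.5 and 14.7 CPM in circTau6 libraries, against 20.2, 15.6, 15.3, 15.3 and 15.0 CPM in control libraries. Controls 2 to 5 lay close together, control library 1 stood with the highest circTau6 libraries, and circTau6 library 5 was below every control. The means were 18.5 ± 2.80 CPM in circTau6 and 16.3 ± 2.22 CPM in control libraries (SD, n = 5 each). The log2 fold change was 0.19 ± 0.11 (SE), with 0.28 without control library 1 and 0.13 without circTau6 library 4.

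Nlrc5 encodes the transactivator of class I and of the loading genes, a nuclear protein of the NLR family. It had 5.49, 5.62, 3.84, 4.65 and 2.52 CPM in circTau6 libraries, against 3.04, 1.78, 2.47, 0.736 and 2.34 CPM in control libraries. Again 4 of 5 circTau6 libraries exceeded each control, and circTau6 library 5 was between controls 1 and 3. Its counts were 37 to 97 in circTau6 and 11 to 47 in control libraries. The means were 4.42 ± 1.28 CPM in circTau6 and 2.07 ± 0.87 CPM in control libraries (SD, n = 5 each), and the log2 fold change was 1.09 ± 0.30 (SE), or 0.89 when control library 4 was left out. Its order against Psmb8 changed with the setting: without control library 4 Psmb8 had 0.93, and on the TPM scale with a pseudocount of 0.5 Nlrc5 had 0.67 and Psmb8 had 1.00. Ciita, its counterpart for class II, had 14 to 16 counts in circTau6 and 6 to 24 counts in control libraries.

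Of the 10 genes, 10 had a positive log2 fold change on the counts, though Erap1 had -0.03 on the TPM scale with a pseudocount of 0.5. Their median was 0.34, where 49.9% of all genes tested were positive and the median of all tested was -0.00. At an adjusted p under 0.05 edgeR's quasi-likelihood test called 0 of the 10, beside 0.0% of all genes. At an unadjusted p under 0.05 it had 4 of the 10, all with higher values in circTau6 (Psmb8, Nlrc5, Tap1 and Tap2), beside 2.58% of all genes. DESeq2 called 1, Psmb8, with an adjusted p of 0.0493, beside 0.0766% of all genes in that direction, and limma voom called 0, beside 0.0% of all genes. In 2 of the 10, Psmb8 and Tap2, every circTau6 library was above every control library, beside 0.472% of all genes. The choice of the genes used this contrast, so nothing is read from these shares. The lowest adjusted p of edgeR was 0.621, for Psmb8, and the others ranged up to 0.981.

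The authors' deposited table gives a log2 ratio of TPM means and an FDR for each gene, from a test that was not given in the sources used here. In the authors' deposited table Psmb8 had a log2 ratio of 1.06 with an FDR of 0.0865, and Nlrc5 had 0.92 with an FDR of 0.209. Tap1 had 0.77 and Tap2 had 0.48 in the authors' deposited table, and Erap1, at -0.12, was the only one of the 10 below 0 there.

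Levels of different genes can be set side by side only per length, as TPM, the deposited unit that scales a transcript to its length and to the library. On the TPM scale the order in circTau6 libraries was Psme1 at 66.8, Psme2 at 42.0, Tapbp at 31.6, Psmb10 at 20.7, Psmb8 at 12.2, Erap1 at 8.50, Tap2 at 7.70, Tap1 at 5.63, Psmb9 at 3.12 and Nlrc5 at 1.52 (means of 5). In control libraries the TPM means followed nearly the same order, with Psme1 at 62.9, Psme2 at 35.3, Tapbp at 24.5, Psmb10 at 17.7, Erap1 at 9.23, Psmb8 at 5.86, Tap2 at 5.53, Tap1 at 3.30, Psmb9 at 1.98 and Nlrc5 at 0.801. Psmb8 thus stood above Erap1 in circTau6 and below it in control libraries. In circTau6 libraries Tapbp (23.3 to 44.1 TPM) overlapped Psme2 (38.7 to 48.3 TPM) across libraries. Each gene from Psmb8 down overlapped the next in its range of TPM, as Psmb8 (8.71 to 17.1 TPM), Erap1 (6.53 to 11.04 TPM) and Tap2 (6.05 to 9.34 TPM) did. In control libraries the ranges overlapped from Psmb10 down, as for Erap1 (6.60 to 17.5 TPM), Psmb8 (4.07 to 7.97 TPM) and Tap2 (4.66 to 5.81 TPM). Within libraries the order was firmer. Psme1 stood above the other 9 genes in each library of both groups, and Tap2, Tap1, Psmb9 and Nlrc5 kept this order in each. Psmb8 was above Erap1 in each circTau6 library and below it in each control library. Erap1 and Tap2 changed places between circTau6 libraries, and Psmb8 and Tap2 between control libraries.

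Each inducible subunit replaces a standard one, and the transcript of the first was set against that of the second in each library as a percentage of TPM. The standard subunits themselves were even, and edgeR gave log2 fold changes of -0.09 ± 0.06 (SE) for Psmb5, 0.04 ± 0.08 (SE) for Psmb6 and 0.05 ± 0.05 (SE) for Psmb7, with adjusted p values of 0.981, 0.991 and 0.981. Psmb8 transcripts amounted to 9.76, 10.3, 14.3, 10.5 and 7.85% of those of Psmb5 in circTau6 libraries, against 5.97, 5.83, 4.87, 3.18 and 4.23% in control libraries. All circTau6 percentages lay above all control percentages, with means of 10.5 ± 2.36% in circTau6 and 4.81 ± 1.16% in control libraries (SD, n = 5 each), a log2 difference of 1.14.

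Psmb9 transcripts amounted to 2.7, 3.2, 2.27, 3.26 and 1.55% of those of Psmb6 in circTau6 libraries, against 3.53, 1.47, 1.24, 1.6 and 0.813% in control libraries. The highest percentage was that of control library 1, so no circTau6 library was above every control. Psmb10 transcripts amounted to 16.7 ± 1.57% of those of Psmb7 in circTau6 and 14.9 ± 1.58% in control libraries (SD, n = 5 each), groups that overlapped. In both groups Psmb10 was thus nearest to its standard partner and Psmb9 farthest from it. These are ratios of transcripts, not of subunits in particles.

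**Figure D2:**
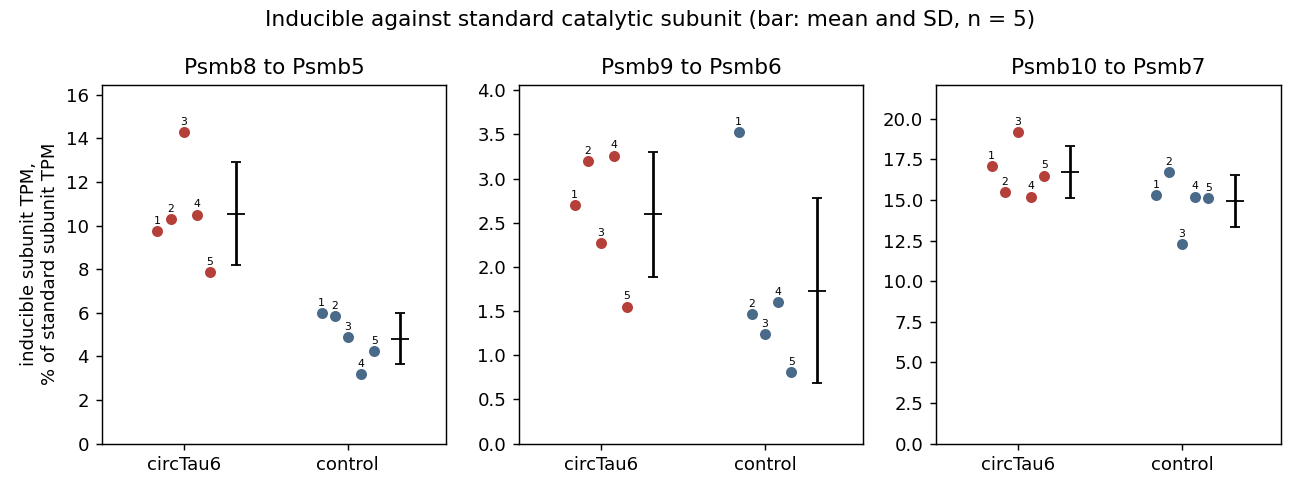
TPM of each inducible catalytic subunit as a percentage of the TPM of the standard subunit it replaces (y axis) in circTau6 and control libraries (x axis). Points are libraries with their replicate number, and bars give the mean and SD of 5. The percentages for Psmb8 to Psmb5 are 7.85 to 14.3% in circTau6 and 3.18 to 5.97% in control libraries, while the other pairs overlap between groups.

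The rest of the pathway was listed by role, not by value. In 5 lists of standard proteasome genes (catalytic subunits, the rest of the core, the cap, assembly factors, and other regulators), edgeR's quasi-likelihood test with Benjamini-Hochberg adjustment called 0 of 43 genes higher and 0 lower. The median log2 fold change over these 43 genes was 0.01, with a range of -0.15 to 0.20. In the core, Psma7, Psma2, Psma6 and Psmb4, which build its rings, had log2 fold changes of 0.05, 0.04, 0.04 and 0.04. In the cap, which takes in ubiquitin-tagged proteins, the 18 genes ranged from -0.06 to 0.06, with Psmc5 and Psmd6 at 0.06, Psmd14 at 0.05 and Psmd12 at -0.06. Assembly factors ranged more widely, with Psmg4 at 0.20 ± 0.20 (SE), Psmg2 at 0.11 ± 0.10 (SE), Psmd9 at -0.10 ± 0.08 (SE) and Psmg3 at -0.15 ± 0.15 (SE). Among the regulators, the inhibitor gene Psmf1 had 0.15 ± 0.07 (SE). It was the only one of the 43 with an unadjusted p under 0.05 (0.0449, adjusted 0.981 in edgeR), beside 2.58% of all genes with higher values. Psme3, the nuclear relative of PA28, had -0.04 ± 0.05 (SE) and Psme4 had 0.04 ± 0.05 (SE). The log2 fold changes of Psme1, Psme2 and Erap1 lay within the range of these 43 genes. Those of Psmb10 and Tapbp, both 0.21, lay just above its upper end of 0.20, and were 0.16 and 0.08 without circTau6 library 3.

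The class I chains were tested on the same fit, and edgeR called 0 of 3, with 3 higher at an unadjusted p under 0.05, beside 2.58% of all genes. H2-K1, a class I heavy chain, had 59.0, 63.0, 52.6, 54.1 and 37.5 CPM in circTau6 libraries, against 37.8, 37.0, 30.2, 23.2 and 26.8 CPM in control libraries, where circTau6 library 5 was just under control library 1. The log2 fold changes were 0.78 ± 0.17 (SE) for H2-K1, 0.82 ± 0.18 (SE) for H2-D1 and 0.60 ± 0.17 (SE) for B2m, the light chain. The general loading chaperones did not share these values: the median over 4 genes was -0.06, with Calr (calreticulin) at -0.12 ± 0.11 (SE), Pdia3 at -0.09 ± 0.09 (SE), Canx (calnexin) at -0.02 ± 0.04 (SE) and Tapbpl, a tapasin relative, at 0.30 ± 0.17 (SE), and edgeR called 0 of 4. Among 7 other peptidases with a part in peptide supply, the median was -0.03 and edgeR called 0, with Tpp2 at -0.09, Lnpep at -0.11, Nrdc at -0.04 and Npepps at -0.02.

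**Figure D3:**
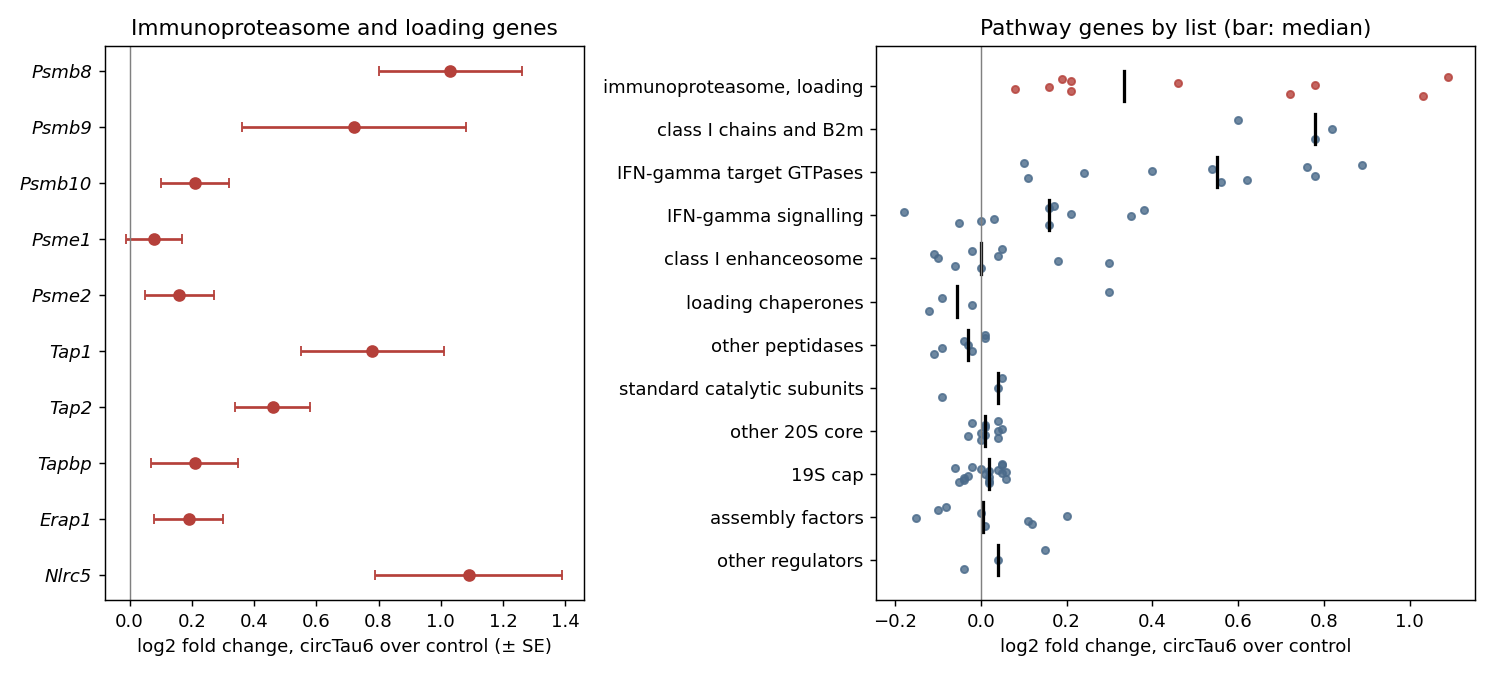
Log2 fold changes of circTau6 over control from edgeR (x axes) for the 10 genes, with their standard errors (left), and for each list of pathway genes, 1 point a gene and a bar at the list's median (right). The points of the 5 standard proteasome lists lie between -0.15 and 0.20, and the 10 genes of the immunoproteasome and loading lie between 0.08 and 1.09.

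Interferon-gamma, the inducer for which the immunoproteasome is known, was itself hardly seen. Ifng had 2 counts in circTau6 library 5 and 0 in each of the other 9 libraries, so its transcript was not detectable there above a limit of 3 counts. Of 12 genes of interferon-gamma signalling, 10 could be tested and edgeR called 0. The median log2 fold change of the 10 was 0.16, with Irf8, a transcription factor of myeloid cells, at 0.38 ± 0.16 (SE), Stat2 at 0.17 ± 0.11 (SE), the receptor chain Ifngr1 at 0.16 ± 0.10 (SE), and Irf2, a repressor of interferon targets, at -0.18 ± 0.09 (SE). Only Irf8, higher, and Irf2, lower, had an unadjusted p under 0.05 in edgeR (0.0363 and 0.0484), beside 2.58% and 1.85% of all genes. The adjusted p of edgeR was 0.981 for both.

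Guanylate-binding and immunity-related GTPases are textbook targets of interferon-gamma. Of 10 such genes edgeR called 0 and had 2 higher at an unadjusted p under 0.05, beside 2.58% of all genes. All 10 had positive log2 fold changes, beside 49.9% of all genes tested, and the median was 0.55. Iigp1 had 10.8, 13.6, 6.88, 13.001 and 4.96 CPM in circTau6 libraries, against 8.34, 5.81, 4.93, 3.81 and 3.60 CPM in control libraries. Its groups overlapped through circTau6 libraries 3 and 5 and control libraries 1 and 2, with a log2 fold change of 0.89 ± 0.32 (SE), while Igtp had 0.76 ± 0.32 (SE), Gbp2 had 0.56 ± 0.27 (SE) and Irgm1 had 0.40 ± 0.21 (SE). The DNA-binding partners through which Nlrc5 acts were also listed, 9 genes with a median of -0.00, of which edgeR called 0. Nfya had 0.18 ± 0.11 (SE), Rfxank had 0.30 ± 0.20 (SE), Creb1 had -0.11 ± 0.07 (SE) and Nfyb had -0.10 ± 0.08 (SE), so the partners lay lower than Nlrc5 itself. Over all 86 pathway genes tested, edgeR had 7 with higher and 1 with lower values at an unadjusted p under 0.05, beside 2.58% and 1.85% of all genes, and 0 at an adjusted p under 0.05. Of the chaperones, the other peptidases and the partners of Nlrc5, 0 had an unadjusted p under 0.05. DESeq2 called 2 of the pathway genes, H2-K1 and H2-D1, and limma voom 0. The lists were chosen with results of these data known, and their counts and medians are a description.

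Most of the 10 genes varied together between mice of the same group, Psmb10 least and Nlrc5 less than the others. The mean log2 CPM over the 10 genes was 3.33, 3.34, 3.48, 3.30 and 2.85 in circTau6 libraries 1 to 5, against 3.17, 2.82, 2.82, 2.49 and 2.55 in control libraries 1 to 5. Control library 1 was above circTau6 library 5 and the highest control in 8 of the 10 genes. The circTau6 library 5 was the lowest of its group in 9 of the 10, circTau6 library 3 was the highest of all libraries in 6, and control library 5 was the lowest of all in 5. With each group's mean removed, the Pearson r of a gene with the mean of the other 9 over the 10 libraries was 0.94 for Psmb9, 0.92 for Tap1, 0.85 for Psmb8, 0.85 for Psme1, 0.77 for Tapbp, 0.75 for Erap1, 0.74 for Psme2, 0.65 for Tap2 and 0.55 for Nlrc5, and only 0.21 for Psmb10. These values share library, depth and scaling and are a description over 10 libraries.

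**Figure D4:**
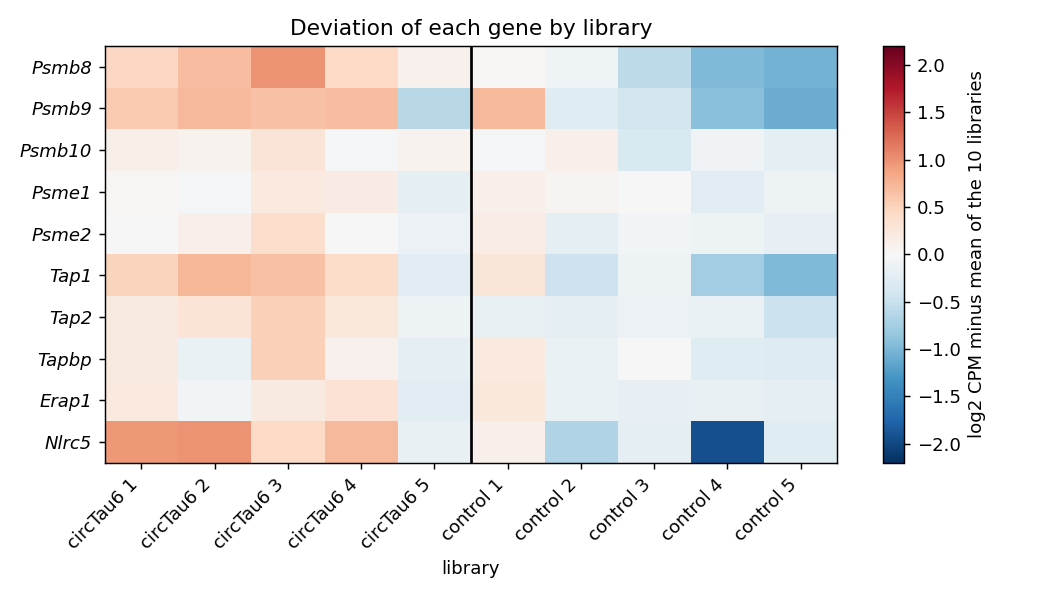
Difference of each gene's log2 CPM from its mean over the 10 libraries (colour, in log2 units), with genes in rows and the 5 circTau6 libraries left of the 5 control libraries in columns. Control library 1 is above the mean in most rows and circTau6 library 5 below it in most rows, against the side of their own group.

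Across all genes at a mean log2 CPM of at least 1, 13023 in number and not counting the 10, those whose deviations within groups were most like the mean of the 10 were Slc25a28 with a Pearson r of 0.965, Usp18 with 0.94, Trim21 with 0.937, LTO1 with 0.932, Eif2ak2 with 0.93, Rps27l with 0.928, Irgm1 with 0.922, Rabl3 with 0.922, Mup22 with 0.921 and Litaf with 0.918. Each r is over 10 libraries that share depth and scaling, and is a description of likeness alone. Their log2 fold changes of circTau6 over control ran from -0.77 for Mup22 to 0.40 for Irgm1, with 0.01 for Slc25a28 and 0.26 for Usp18. These are the highest of 13023 values of r, and how high r runs by chance here was not tested. Among the genes listed, a high r did not come with 1 common difference between groups.

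The choroid plexus content and the GC trend bear on circTau6 libraries 3 and 5 and control library 2. Without the 2 libraries poor in choroid plexus transcripts the log2 fold changes were 1.23 for Psmb8, 1.18 for Nlrc5, 0.88 for Psmb9, 0.87 for Tap1, 0.54 for Tap2, 0.28 for Psmb10, 0.26 for Tapbp, 0.24 for Erap1, 0.18 for Psme2 and 0.15 for Psme1, a setting chosen after the data were seen. All 10 were larger than with all libraries, and edgeR's lowest adjusted p among them was 0.159, for Psmb8. Without circTau6 library 3 they were 0.90 for Psmb8, 1.14 for Nlrc5, 0.72 for Tap1, 0.67 for Psmb9 and 0.38 for Tap2, and 0.16 or less for the other 5 genes. The transcripts of 9 of the 10 genes have a GC content of 52.5 to 57.1%, above the median of 49.7% over all genes tested, while Erap1 has 41.5%. The part of GC content in the values of circTau6 library 3 was not tested.

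Markers of cell types that carry this machinery moved with the groups in part. The summed level of 11 microglial markers was 430 to 455 CPM in circTau6 and 397 to 427 CPM in control libraries, without overlap, though edgeR called 0 of 11, with 5 higher at an unadjusted p under 0.05, beside 2.58% of all genes. Their median log2 fold change was 0.11, under those of Psmb8, Nlrc5, Tap1, Psmb9 and Tap2. Markers of T and NK cells summed to 3.94 to 7.02 CPM in circTau6 and 1.89 to 4.20 CPM in control libraries. Of these 14 markers, 2 had enough counts to be tested, and edgeR called 0. At an unadjusted p under 0.05 it had 1 higher, beside 2.58% of all genes. Of the 14, Cd3d, Gzma, Ncr1 and Klrb1c had at most 3 counts in any library. Others were detected at low counts, and some tended higher in circTau6 libraries: Cd2 had 1 to 15 counts in circTau6 and 0 to 2 in control libraries, Cd8a 4 to 14 in circTau6 and 0 to 3 in control libraries, Trac 6 to 16 in circTau6 and 1 to 9 in control libraries, and Cd3g 2 to 17 in circTau6 and 0 to 4 in control libraries. Cd4 had 2 to 13 counts in both groups. Lck had 16 to 31 counts in circTau6 and 12 to 30 in control libraries, and Trbc2 2 to 20 and 3 to 8. Cd3e had 1 to 5 counts in circTau6 and 0 to 2 in control libraries, Nkg7 1 to 4 and 0 to 3, and Gzmb 0 to 10 and 0 to 2. B and plasma cell markers summed to 18.1 to 171 CPM in circTau6 and 22.3 to 69.9 CPM in control libraries, and border macrophage and monocyte markers to 11.7 to 30.9 CPM in circTau6 and 10.04 to 19.6 CPM in control libraries. Endothelial markers summed to 238 to 310 CPM in circTau6 and 231 to 267 CPM in control libraries. In each of these 3 lists edgeR called 0 genes. At an unadjusted p under 0.05 it had 1 higher, a border macrophage marker, beside 2.58% of all genes. Of the single libraries, circTau6 library 5 had a microglial sum of 452.8 CPM, the second highest, beside the lowest levels of its group in 9 of the 10 genes. The part of cell content in the differences was not tested.

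Counts and TPM did not always rank the libraries alike. Erap1, Tapbp, Nlrc5 and Psmb9 are given here, and Psme2 above. For Psmb8, circTau6 library 1 was above circTau6 library 2 in TPM and below it in CPM. Control library 5 stood likewise to control library 4. On both scales all circTau6 libraries of Psmb8 lay above all control libraries. The count divided by the TPM of a gene depends on the transcript length behind the TPM. Here that quotient is given relative to its median over the expressed genes of the same library. For Erap1 it was 0.964 in control library 1 and 1.51 to 1.91 in the other 9, a 1.98-fold range that 1.46% of 13053 expressed genes reached or passed, where the median gene had 1.05-fold. Erap1 therefore had 17.5 TPM in control library 1, against 6.60 to 8.31 TPM in the other controls and 6.53 to 11.04 TPM in circTau6 libraries, and the log2 ratio of TPM means was -0.12 with and 0.25 without that library. For Tapbp the quotient was 0.621 in circTau6 library 1 and 0.90 to 0.92 in the others, a 1.48-fold range that 5.6% of genes reached or passed. Tapbp had 44.1 TPM in circTau6 library 1, against 23.3 to 38.4 TPM in the other circTau6 libraries and 21.3 to 30.5 TPM in control libraries, and its log2 ratio of TPM means was 0.37 with and 0.22 without that library. For Nlrc5 the quotient was 1.72 in control library 1 and 2.27 to 2.57 in the others. On the TPM scale 3 rather than 4 circTau6 libraries of Nlrc5 exceeded each control, since circTau6 library 3 had 1.26 TPM and control library 1 had 1.48 TPM, and its log2 difference was 0.67 with a pseudocount of 0.5 and 0.94 with 0.1. For Psmb9 the quotient was 0.344 in circTau6 library 5, 0.274 in control library 4 and 0.412 to 0.459 in the others, a 1.68-fold range at low counts. The range was 1.27-fold for Psmb8 and 1.17-fold for Psme2. GENCODE lists 4 coding transcripts of Erap1, from 354 to 5644 bases, and 5 of Tapbp, from 301 to 2898 bases. Whether the libraries differ in the isoforms of these genes was not tested, since the table holds genes and not transcripts.

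**Figure D5:**
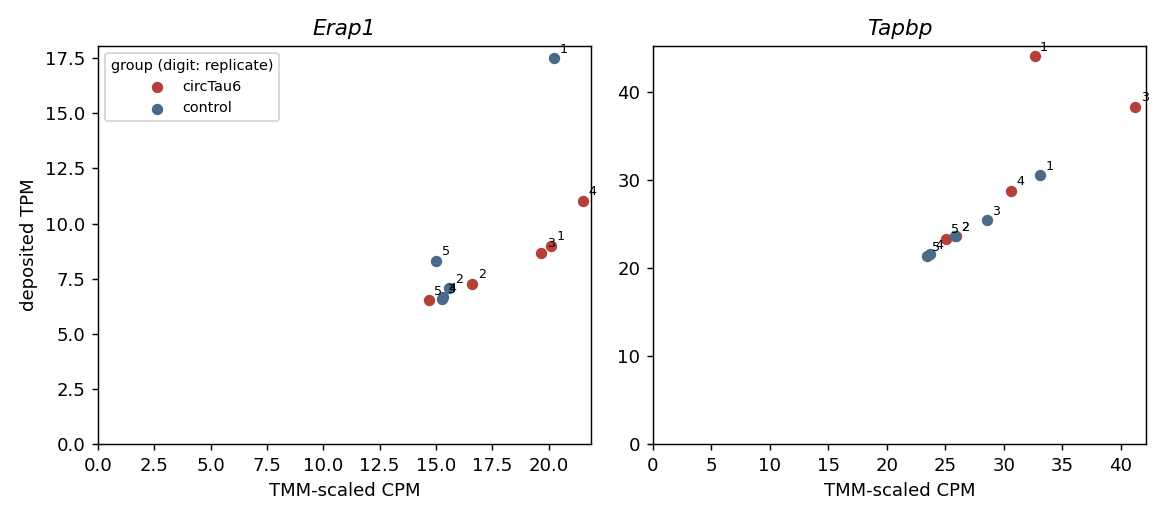
Deposited TPM (y axis) against TMM-scaled CPM (x axis) for Erap1 and Tapbp, 1 point a library with its replicate number. Circles are circTau6 or control libraries by colour. For Erap1 control library 1 is the highest in TPM, at 17.5, and for Tapbp circTau6 library 1, at 44.1 TPM, although neither is the highest in CPM.

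Some of the 10 genes share bases with other genes, and the strand setting of the authors' counting was not given in the sources used here, although the labels describe strand-specific libraries. In GENCODE, Psmb9 and Tap1 overlap on opposite strands by 212 bases, Erap1 and Cast by 834, and Psme1 and Emc9 by 14. Tapbp and Zbtb22 overlap there on the same strand by 3422 bases. The annotations differ for Psmb9, whose GENCODE span reaches position 34187764, while its RefSeq start at 34187330 leaves 225 bases up to that of Tap1. Antisense genes across Psmb8, Psmb10, Tap2, Tapbp and Nlrc5 were not analysed here. Of 13 tested genes nearest to the 10 on the chromosome, edgeR called 0. At an unadjusted p under 0.05, beside 2.58% of all genes with higher values, it had 2, both with higher values in circTau6. These were Rnf31, beside Psme2, at 0.20 ± 0.09 (SE), and H2-Ab1, a class II gene next to Tap2, at 1.51 ± 0.47 (SE). Pskh1 next to Psmb10 had 0.23 ± 0.13 (SE), Daxx and Rgl2 on either side of Tapbp had 0.11 ± 0.09 (SE) and 0.11 ± 0.07 (SE), and the median over the 13 was 0.05.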

How the data were processed

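The deposited table lists 21956 genes and holds, per the file headers, a raw count and a TPM for each gene in each library, besides the authors' own log2 ratio, p-value and FDR. That deposited log2 ratio equals the ratio of TPM means between groups, and the test behind the deposited p-value was not given in the sources used here. Of the deposited counts 108 are 0 where the TPM is above 0, so they may be rounded estimates. Per the labels' protocols, RNA with an integrity number above 8.0 was depleted of ribosomal RNA, and strand-specific libraries were read as paired ends of 150 bp. StringTie 1.3.1 and RSEM appear in the submitters' processing notes without a role, and the aligner, the build and the gene annotation were not given in the sources used here.

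Groups come from the labels, 5 mice each, and p-values measure the spread between these mice. edgeR 4.0.16 in R 4.3.3 (filterByExpr, TMM, robust quasi-likelihood F test) was fitted to 14396 genes, with Benjamini-Hochberg adjustment at a threshold of 0.05. An SE is a log2 fold change over the root of its F. CPM is TMM-scaled, log2 CPM used a prior count of 2, and the fit was tested on simulated data. Alternatives were DESeq2 1.42.0, voom of limma 3.58.1 with quality weights, edgeR with other scalings or no filter or a replicate block, an adjusted p of 0.1, TPM with pseudocounts of 0.5 and 0.1, and leaving out each library. IDs of 21804 genes matched GENCODE release M21 on GRCm38, and coordinates are those of that match. A further motif search is not reported here. Tables were handled with Python 3.11.15, pandas 2.3.3 and numpy 2.4.6.

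The 10 genes, the pathway lists and the tests were chosen with earlier results of these data known. The genes named are the 10, the standard catalytic subunits, Psme3, B2m, Calr, Canx and Pdia3, up to 4 genes of each list by lowest unadjusted p, and the 10 genes most like the mean of the 10 by Pearson r. Ciita, Psme2b, Ifng, the marker genes and the neighbouring genes were named besides, after their values were seen. Marker lists of neurons, astrocytes, oligodendrocytes, choroid plexus and meningeal fibroblasts gave 0 calls in edgeR, with 0 at an unadjusted p under 0.05. Their summed levels overlapped between groups. The neuronal markers summed to 5640 to 6550 CPM in circTau6 and 6160 to 6700 CPM in control libraries, and the choroid plexus markers to 439 to 9310 CPM in circTau6 and 448 to 8100 CPM in control libraries.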

Additional observations from a re-analysis of the deposited data

Results flagged for a closer look

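In groups of 5 libraries, a library was marked when its gap to the nearest of the others was more than 0.71 of the whole range of the group, which chance gives for about 1 group in 20. Of 66 groups examined (the genes on the count and TPM scales, the ratios of subunits and the summed marker lists), 7 were marked. Psmb9 was low in circTau6 library 5, at 0.748 CPM and 1.83 TPM, against 1.70 to 1.87 CPM and 3.27 to 3.70 TPM in the other circTau6 libraries. Tap2 was low in control library 5, at 6.47 CPM and 4.66 TPM, against 7.77 to 8.21 CPM and 5.61 to 5.81 TPM in the other control libraries. Erap1 was high in control library 1, at 20.2 CPM and 17.5 TPM, against 15.0 to 15.6 CPM and 6.60 to 8.31 TPM in the other control libraries. The summed markers of hippocampal neurons were high in control library 2, at 6700 CPM, against 6160 to 6280 CPM in the other control libraries.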

How the results depend on the processing

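Over all genes, edgeR called 0 at an adjusted p under 0.05, with 637 at an unadjusted p under 0.05. DESeq2 called 14, edgeR with library totals only 2, edgeR without a count filter 2, an adjusted p under 0.1 gave 2 (Ptprc and Ctss), and 3 were called without circTau6 library 5 and control library 2, which hold little choroid plexus RNA, a setting added after the data were seen. Leaving out 1 library gave 0 to 4 calls, with 4 without circTau6 library 5 and 1 each without control library 1 or 3. With the replicate number as a block edgeR called 4 genes, 2 of them pathway genes (H2-D1 and H2-K1), and 0 of the 10 immunoproteasome and loading genes. The numbers do not pair the mice by any label, and same-numbered libraries deviated together with Pearson r of -0.076 to 0.136, so they share only a number. DESeq2 called 1 of the 10 (Psmb8) and 2 pathway genes (H2-D1 and H2-K1). Leaving out any 1 library gave 0 calls in both sets. Psmb8, with an adjusted p of 0.0493 in DESeq2, had 0.621 in edgeR with all libraries. The lowest adjusted p in any setting was 0.204 for Tap2, 0.257 for Nlrc5 and 0.302 for Tap1. The median log2 fold change of the 10 was 0.335 and ran from 0.272 to 0.406 with 1 library left out. Of 190 alternative log2 fold changes of single genes, 188 stayed positive, and Erap1 on the TPM scale gave -0.03 and -0.029 with pseudocounts of 0.5 and 0.1. The log2 differences in subunit ratio ran from 1.00 to 1.24 for Psmb8 to Psmb5, 0.48 to 1.01 for Psmb9 to Psmb6 and 0.10 to 0.21 for Psmb10 to Psmb7 with 1 library left out. Depth limits Psmb9 and Nlrc5 most, with as few as 8 and 11 counts in a library.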
